A study of Mus musculus with 4 samples.

Results

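Segment identity transcription factors set which stretch of the gut an epithelial cell belongs to. A total of 9 of them (Gata4, Gata6, Cdx1, Cdx2, Pdx1, Onecut2, Osr2, Hnf4a and Hnf4g) were taken by gene symbol from a table of 56748 genes. Their expression was compared in the small intestine (SI) of p53+/+ (WT) mice and p53-/- mice, all collected 1 day after 12 Gy total body irradiation (TBI) from a Cs-137 γ-source. The p53-/- mice lack the tumor suppressor p53 in the whole animal, so every cell type of the SI was deficient. The study's methods give age- and gender-matched mice between 8 and 12 weeks old. There were 2 libraries per genotype, and every group received the same dose, so the effect of irradiation itself cannot be read from these 4 libraries. The labels name the tissue as small intestine and give no segment.

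CDX2 and CDX1 are homeodomain proteins of the intestinal epithelium, and CDX2 keeps intestinal cells from taking on gastric features. GATA4 is a zinc finger protein of the duodenum and jejunum that is switched off toward the ileum, while GATA6 is present along the whole intestine. PDX1 belongs to the duodenum and the pancreas, and ONECUT2 to the proximal SI. HNF4A and its close relative HNF4G are nuclear receptors that drive enterocyte genes of absorption and the brush border, and OSR2 is a zinc finger protein of the odd-skipped family, best known from palate development.

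Promoters of 3 of the 9 members (4 windows) were found in RefSeq on the mouse build GRCm38.p6. They are shown for Cdx2, the member with the smallest p-value, and for Hnf4a, which has separate start sites in RefSeq. Each run holds the 250 bases before the start, in the direction of the gene. Capitals mark matches on either strand. For GATA factors the letters searched were AGATAA, and for CDX factors they were TTTATG. An HNF1 half-site was read as GTTAAT, and HNF4 as the run CAAAGTCCA.
Cdx2, chr5:147307250-147307499, minus strand: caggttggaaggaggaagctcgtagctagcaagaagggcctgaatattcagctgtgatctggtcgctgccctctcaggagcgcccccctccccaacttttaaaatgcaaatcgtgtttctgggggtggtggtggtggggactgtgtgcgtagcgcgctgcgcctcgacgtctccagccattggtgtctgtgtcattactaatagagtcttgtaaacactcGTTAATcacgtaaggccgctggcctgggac
Hnf4a upstream start, chr2:163506607-163506856, plus strand: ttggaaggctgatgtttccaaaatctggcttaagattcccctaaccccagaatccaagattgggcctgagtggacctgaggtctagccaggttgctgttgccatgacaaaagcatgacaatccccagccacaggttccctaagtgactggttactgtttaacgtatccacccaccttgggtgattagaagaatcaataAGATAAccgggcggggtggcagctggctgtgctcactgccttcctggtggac
Hnf4a downstream start, chr2:163546905-163547154, plus strand: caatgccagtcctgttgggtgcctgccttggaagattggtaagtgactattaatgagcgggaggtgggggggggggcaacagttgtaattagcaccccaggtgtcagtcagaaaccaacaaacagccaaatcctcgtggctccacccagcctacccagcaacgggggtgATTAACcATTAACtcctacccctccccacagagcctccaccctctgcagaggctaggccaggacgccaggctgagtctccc
The Cdx2 window holds 1 HNF1 half-site, 30 to 25 bases before the start. The upstream Hnf4a window holds 1 GATA match and the downstream window a pair of HNF1 half-sites on the minus strand. The bases just after the downstream start were not found in an annotated Hnf4a transcript, unlike those after the other windows shown. Over 32817 promoter windows of the same length, 9.99% held the GATA letters, 10.8% the CDX letters, 6.44% the HNF1 half-site and 0.384% the HNF4 letters. Matches are a description of letters, and no binding was measured here.

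The libraries held 17430246 and 15005479 counts for p53+/+ (libraries 7 and 8) and 22173164 and 19811346 for p53-/- (libraries 9 and 10), numbers that name the libraries and pair no animals. Replicate libraries were further apart than counting error allows (chi-square per degree of freedom 48.0 and 69.5). The methods describe data points as biological replicates but the labels name no animals, so p-values measure only the spread between these libraries, which may be technical in part. Trp53, the deleted gene, was at 57.7 and 47.1 CPM (counts scaled to a fixed library total) in p53+/+ and at 19.8 and 22.5 CPM in p53-/- libraries (adjusted p = 0.0602 from the edgeR test described next), and counts per gene do not show which of its exons were read. Of 16094 genes with enough counts to be tested by edgeR's quasi-likelihood test, 0.298% were higher and 0.193% lower in the p53-/- SI at a Benjamini-Hochberg adjusted p under 0.05. Library 8 held the most smooth muscle RNA (summed 5850 CPM over 11 marker genes, against 755 to 1474 CPM in the other libraries) and library 10 the most ribosomal RNA (Rn18s-rs5 took 4.59% of its counts, against 0.296% to 0.863% elsewhere) and B cell RNA (summed 580 CPM over 10 genes, against 2.29 to 28.8 CPM).

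The textbook segment genes had an ileal pattern in all 4 libraries. Fabp6, the bile acid carrier of ileal enterocytes, was at 5483 and 1836 CPM in p53+/+ and at 1639 and 2072 CPM in p53-/- libraries. Lct, the lactase of the proximal SI, stayed at or below 0.990 CPM in every library. Per kilobase of exon, Fabp6 was at 3421 CPM or more and Lct at 0.155 CPM or less in each library. Per kilobase, Gata6 also outnumbered Gata4 in all 4 libraries, with a Gata4 to Gata6 ratio of 0.0380 and 0.0103 in p53+/+ and 0.0641 and 0.121 in p53-/- libraries. As this is bulk RNA, fewer cells of a type and less RNA per cell cannot be told apart.

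Compared per kilobase of exon, the members fell into an abundant and a scarce set. In the p53+/+ SI, Hnf4a stood first at 265 ± 51.7 CPM per kilobase (SD, n = 2), followed by Cdx1 at 200.2 ± 38.3, Cdx2 at 193 ± 60.9, Hnf4g at 123 ± 11.6, Osr2 at 44.9 ± 7.46 and Gata6 at 13.6 ± 3.24. Gata4 was far below at 0.359 ± 0.344 CPM per kilobase, and Pdx1 and Onecut2 came last at 0.0287 ± 0.0406 and 0.0173 ± 0.0132. The levels of Cdx1 and Cdx2 overlapped between the p53+/+ libraries, as did those of Pdx1 and Onecut2, so the order within each of these pairs is not set. Cdx2 in library 7 (236) was also above Hnf4a in library 8 (228). In the p53-/- SI, Hnf4a was again first at 199 ± 53.6 CPM per kilobase, overlapping with Cdx1 at 169 ± 7.44. Hnf4g at 110.5 ± 13.0 then overlapped with Cdx2 at 96.2 ± 8.58, before Osr2 at 30.5 ± 3.68, Gata6 at 10.8 ± 2.86 and Gata4 at 0.939 ± 0.168. Onecut2 at 0.0869 ± 0.0504 and Pdx1 at 0.0793 ± 0.0834 overlapped with each other.

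**Figure D1:**
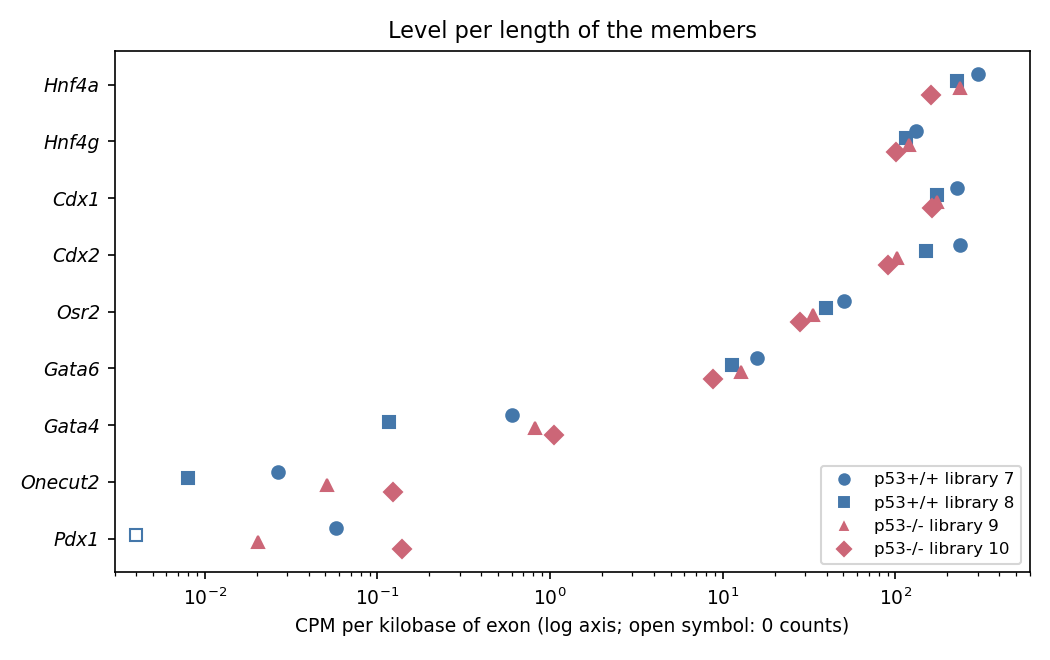
Level of each member per kilobase of annotated exon, in CPM on a log axis, with 1 symbol per library (blue p53+/+, red p53-/-; an open symbol at the left edge marks 0 counts). Hnf4a, Hnf4g, Cdx1, Cdx2, Osr2 and Gata6 lie at 8.73 CPM per kilobase or above in every library, and Gata4, Onecut2 and Pdx1 at 1.06 or below.

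Between genotypes, no member differed past the threshold. Pdx1 had too few counts to be tested, and of the 8 members tested 0 passed an adjusted p under 0.05 in edgeR's quasi-likelihood test, against 0.491% of all genes in either direction. At an unadjusted p under 0.05 there were 3 of 8 (Cdx2 and Osr2 lower, Onecut2 higher), against 18% of all genes. The genotypes did not overlap for 4 of 8 (Cdx2, Osr2, Gata4 and Onecut2), beside 50.7% over all genes tested (26.4% higher and 24.4% lower). Onecut2 passed the filter on low counts only through the p53-/- libraries. Gata4 also needed them, since of the p53+/+ libraries only library 7 had enough counts. The place of Onecut2 and Gata4 among the tested members is thus itself set by their higher level there. With DESeq2, which called 5.47% of its genes higher and 4.47% lower, Cdx2 was lower past the threshold, Onecut2 was given no adjusted p, and the other members tested did not pass.

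Cdx2 showed the largest shift among the abundant members. Its level was 533 and 338 CPM in p53+/+ SI against 231 and 204 CPM in p53-/- SI, and both p53-/- libraries lay below both p53+/+ libraries. The mean was 435 ± 138 CPM (SD, n = 2) in p53+/+ and 218 ± 19.4 CPM (SD, n = 2) in p53-/-, a log2 fold change of -1.001 (standard error 0.277, 95% interval -1.70 to -0.31, unadjusted p = 0.0133, edgeR quasi-likelihood adjusted p = 0.167). The adjusted p was 0.00361 with DESeq2, 0.0213 with edgeR's likelihood ratio test, 0.00304 with all genes kept and 0.0378 without library 8, so the call depended on the test, the filter and that library. Without library 7, the higher p53+/+ library, the log2 fold change was -0.63.

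Cdx1, its paralogue, was at 398 and 303 CPM in p53+/+ and at 304 and 286 CPM in p53-/- libraries. Library 8 and library 9 were at nearly the same level, and the genotypes overlapped. Cdx1 had a log2 fold change of -0.25 (standard error 0.219, 95% interval -0.80 to 0.30, edgeR quasi-likelihood adjusted p = 0.627). The balance of the pair within a library needs no scaling between libraries. Per kilobase, there were 0.965 and 1.16 Cdx1 for each Cdx2 in p53+/+ SI against 1.70 and 1.81 in p53-/- SI, 1.66-fold more by the mean of the log2 ratios. Both p53-/- ratios lay above both p53+/+ ratios, and the difference of 0.73 on the log2 scale was larger than the SD within p53+/+ (0.19) and within p53-/- (0.0652). With 2 libraries against 2, an exact two-sided permutation test gave p = 0.333, the smallest value that this design allows.

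Hnf4a was the most abundant member, above 99.5% of the tested genes by mean CPM in the p53+/+ SI. It was at 1454 and 1101 CPM in p53+/+ and at 1143 and 777 CPM in p53-/- libraries. Library 9 lay between the p53+/+ libraries and library 10 below both. The log2 fold change was -0.41 (standard error 0.313, 95% interval -1.20 to 0.37, edgeR quasi-likelihood adjusted p = 0.564) and moved to -0.10 without library 10. Hnf4g was at 345 and 302 CPM in p53+/+ and at 315 and 266 CPM in p53-/- libraries. Its log2 fold change was -0.16 (standard error 0.203, 95% interval -0.67 to 0.35, edgeR quasi-likelihood adjusted p = 0.755) and turned to 0.01 without library 10. Per kilobase, there were 0.436 and 0.504 Hnf4g for each Hnf4a in p53+/+ and 0.505 and 0.629 in p53-/- libraries. Libraries 8 and 9 were nearly level, and the exact two-sided permutation test again gave p = 0.333.

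**Figure D2:**
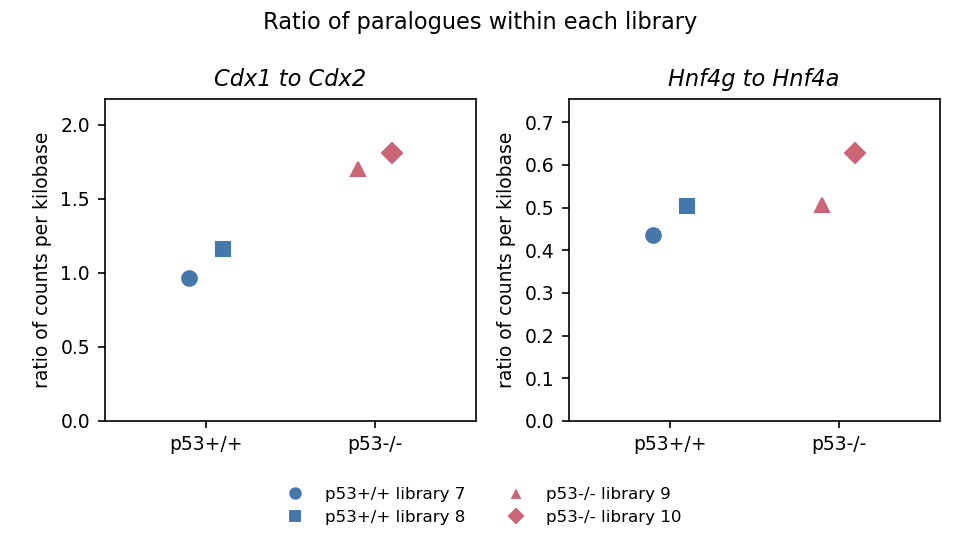
Ratio of counts per kilobase of Cdx1 to Cdx2 (left) and of Hnf4g to Hnf4a (right) within each library, on axes that start at 0 (blue p53+/+, red p53-/-). Cdx1 to Cdx2 is 0.965 and 1.16 in p53+/+ against 1.70 and 1.81 in p53-/-, whereas for Hnf4g to Hnf4a libraries 8 and 9 are nearly level.

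Osr2 was at 182 and 144 CPM in p53+/+ and at 120.003 and 101 CPM in p53-/- libraries. Both p53-/- libraries lay below both p53+/+ libraries. For Osr2 the log2 fold change was -0.56 (standard error 0.203, 95% interval -1.07 to -0.05, unadjusted p = 0.0367, edgeR quasi-likelihood adjusted p = 0.247). The summed level of 11 fibroblast genes was 149, 773, 528 and 537 CPM in libraries 7 to 10, and its part in the Osr2 level was not tested. The genes of the fixed lists with the most similar profile to Osr2 were the epithelial adhesion genes Epcam and Cldn3, at a root-mean-square distance of 0.0466 and 0.0547 on the log2 scale over the 4 libraries. Of all genes tested, 67 lay closer to Osr2 than Epcam did.

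Among the GATA factors, Gata6 was at 103 and 73.4 CPM in p53+/+ and at 83.1 and 56.8 CPM in p53-/- libraries. The higher p53-/- library exceeded the lower p53+/+ library. The log2 fold change was -0.33 (standard error 0.266, 95% interval -1.001 to 0.33, edgeR quasi-likelihood adjusted p = 0.583). Gata6os, an antisense gene with exons that overlap Gata6 in GENCODE M21, had 52, 52, 103 and 88 counts in libraries 7 to 10, where Gata6 had 1667, 1131, 1897 and 1142. Whether the counting used strand is not given, so these reads cannot be told apart with certainty. GATA6 is also made by smooth muscle, whose summed level over 11 genes was 755, 5850, 1474 and 1021 CPM in libraries 7 to 10, and its part in the Gata6 level was not tested.

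Gata4 had 38 and 7 counts in p53+/+ and 73 and 83 in p53-/- libraries. These are 2.35 CPM (95% exact Poisson interval 1.66 to 3.23) and 0.454 CPM (0.183 to 0.936) in p53+/+, and 3.20 CPM (2.51 to 4.02) and 4.13 CPM (3.29 to 5.12) in p53-/-. Intervals cover counting error only. Both p53-/- libraries were above both p53+/+ libraries, and the p53+/+ libraries differed 5.18-fold from each other. The log2 fold change was 1.38 (standard error 0.793, 95% interval -0.61 to 3.37, edgeR quasi-likelihood adjusted p = 0.440). It was 3.001 without library 7 and 0.63 without library 8, so its size rested on the p53+/+ library kept. In p53+/+ only library 7 had enough counts for the filter, so Gata4 was tested only through the p53-/- libraries. The p-value and intervals of Gata4 therefore cannot support its direction.

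Onecut2 had 7 and 2 counts in p53+/+ and 19 and 40 in p53-/- libraries, or 0.433 and 0.130 CPM against 0.833 and 1.99 CPM. Library 10 was the highest. Onecut2 had a log2 fold change of 2.29 (standard error 0.853, 95% interval 0.15 to 4.43, unadjusted p = 0.0402, edgeR quasi-likelihood adjusted p = 0.254). Summed over a genotype, 59 counts stood against 9, a ratio of 4.82. Its counting interval of 2.38 to 11.1 leaves out the spread between libraries. Since Onecut2 passed the filter on low counts only through the p53-/- libraries, its p-value and intervals cannot support its direction. The fitted log2 fold change of Onecut2 was 3.38 without library 7 and 1.599 without library 10.

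Pdx1 was at the edge of detection, with 2 and 0 counts in p53+/+ and 1 and 6 in p53-/- libraries. Only library 10 was above the 3 counts taken as the detection floor. The ratio of 7 to 2 summed counts had a counting interval of 0.490 to 25.4, so a difference was not detectable at this depth. Pdx1 and Cdx2 lie in the same cluster of homeobox genes and are neighbouring protein-coding genes in the RefSeq annotation, one barely detected and the other among the most abundant members. Plut, an antisense gene that overlaps the body but no exon of Pdx1, had 8, 5, 16 and 10 counts. The acinar and islet genes Ptf1a, Prss2, Amy2a5, Ins1 and Ins2 had 0 counts in every library, so defining markers of pancreas were absent.

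**Figure D3:**
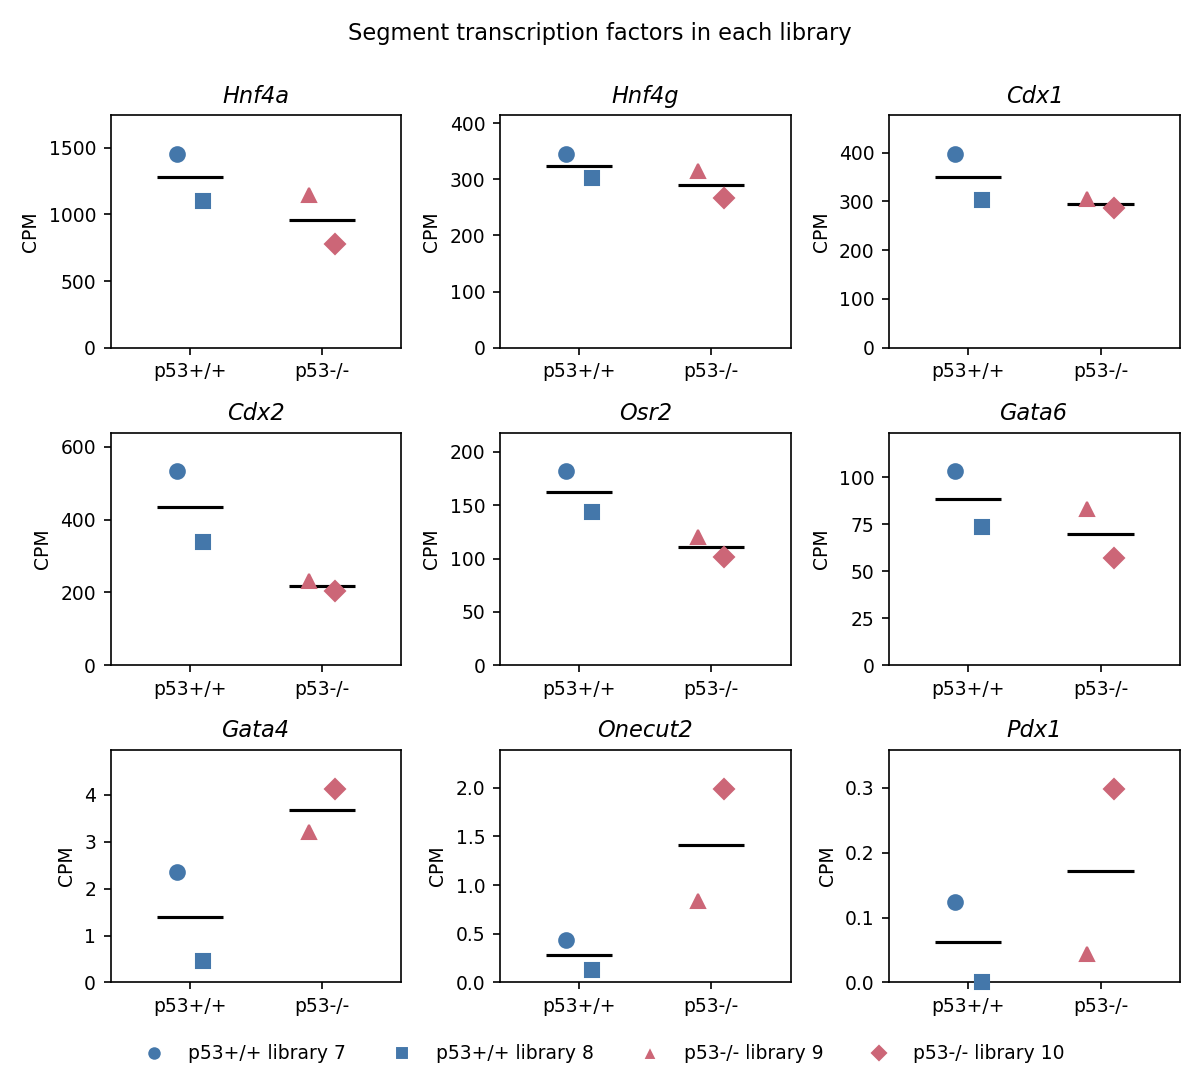
CPM of each member in each library on linear axes that start at 0, with 1 panel per gene (blue p53+/+, red p53-/-; horizontal lines show the mean of the 2 libraries). Cdx2 and Osr2 are lower in both p53-/- libraries, Gata4 and Onecut2 higher in both, and the remaining 5 overlap.

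The abundant members are made mainly by the epithelium, and the summed level of epithelial genes was lower in both p53-/- libraries than in either p53+/+ library. Summed over 16 epithelial genes fixed as a reference list, the level was 32817 and 23997 CPM in p53+/+ and 22278 and 18705 CPM in p53-/- libraries. Of the 16, 13 had a log2 fold change below 0 (median -0.44, against -0.01 over all genes tested) and 0 passed the threshold. The median was -0.15 without library 7 (11 of 16 below 0) and -0.63 without library 8 (14 of 16 below 0). When the libraries were scaled to these genes in place of all genes, the median of all genes moved to 0.44 on the log2 scale. The 8 members tested were then at 0.04 (Hnf4a), 0.30 (Hnf4g), 0.23 (Cdx1), -0.51 (Cdx2), -0.10 (Osr2), 0.13 (Gata6), 1.98 (Gata4) and 2.86 (Onecut2), and 0 of them passed the threshold. The signs of Hnf4a, Hnf4g, Cdx1 and Gata6 turned with this scaling, whereas Cdx2 and Osr2 stayed below 0 and Gata4 and Onecut2 above it. After subtracting the shift of all genes, the values ran from -0.95 for Cdx2 to 2.42 for Onecut2. This subtraction largely returns the first scaling, so it is no separate check of the signs. Per 10000 counts of the epithelial genes, there were 162 and 141 Cdx2 counts in p53+/+ and 104 and 109 in p53-/- libraries, without overlap (log2 fold change -0.51, edgeR quasi-likelihood adjusted p = 0.230). Cdx1 (121 and 126 against 137 and 153) and Hnf4g (105 and 126 against 141 and 142) were higher in both p53-/- libraries on this scale, with adjusted p of 0.528 and 0.438 from the edgeR fit. For Hnf4a, there were 443 and 459 in p53+/+ and 513 and 416 in p53-/- libraries, which overlapped. For Osr2, the values were 55.4 and 59.9 in p53+/+ and 53.9 and 54.1 in p53-/- libraries. How far the share of epithelium sets the lower member levels was not tested.

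**Figure D4:**
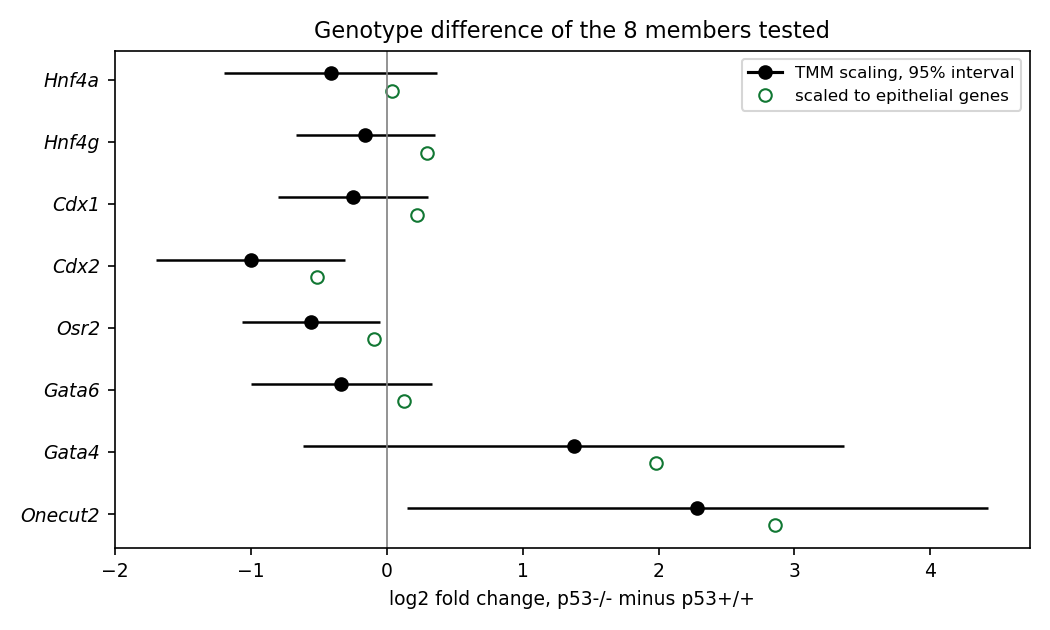
Log2 fold change of the 8 members tested, p53-/- minus p53+/+, with its 95% interval from the edgeR fit (black) and the value after scaling to 16 epithelial genes (green, open). The intervals of Cdx2 (-1.70 to -0.31), Osr2 (-1.07 to -0.05) and Onecut2 (0.15 to 4.43) leave out 0 before adjustment for 16094 genes. Onecut2 passed the filter on low counts only through the p53-/- libraries. The green values lie to the right of the black ones.

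The genes that mark the segments were examined next. All 10 genes of the ileal list had a log2 fold change below 0 (median -0.80, against -0.01 over all genes tested). At an unadjusted p under 0.05 there were 6 of 10, against 18% of all genes, and 0 passed the adjusted threshold. Fgf15, the hormone by which the ileum reports bile acids to the liver, was at 55.5 and 19.7 CPM in p53+/+ and at 4.56 and 6.62 CPM in p53-/- libraries (log2 fold change -2.75, standard error 0.546, edgeR quasi-likelihood adjusted p = 0.106). Cubn, the ileal receptor for vitamin B12 bound to intrinsic factor, was at 667 and 854 CPM in p53+/+ and at 325 and 242 CPM in p53-/- libraries (log2 fold change -1.43, standard error 0.266, edgeR quasi-likelihood adjusted p = 0.1004). Both genes were lower in both p53-/- libraries than in either p53+/+ library. Slc51a, a subunit of the basolateral bile acid exporter, had a log2 fold change of -1.11, and Slc10a2, the apical bile acid importer, of -0.63. Fabp6 had one of -0.98 with a 95% interval of -2.39 to 0.43, and library 7 alone stood high. With DESeq2, 6 of the 10 were lower past the threshold, against 4.47% of all genes. Without library 7, 7 of 10 were below 0 (median -0.60), and scaled to the epithelial genes 8 of 10 were (median -0.33).

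The proximal list showed no common direction. Of 16 genes tested, 9 were above 0 and 7 below (median 0.03). At an unadjusted p under 0.05 there were 2, against 18% of all genes, and 0 passed the threshold. The median was 0.30 without library 7 and -0.28 without library 8. The pair with the smallest p were iron genes of the duodenum. Slc40a1, ferroportin, the iron exporter of the basolateral membrane, was at 32.4 and 21.2 CPM in p53+/+ and at 92.0 and 73.8 CPM in p53-/- libraries (log2 fold change 1.63, standard error 0.256, edgeR quasi-likelihood adjusted p = 0.0744). Cybrd1, the duodenal ferric reductase, was at 1.73 and 2.79 CPM in p53+/+ and at 4.87 and 7.51 CPM in p53-/- libraries (1.45, standard error 0.475, edgeR quasi-likelihood adjusted p = 0.212). Both p53-/- libraries were above both p53+/+ libraries for each. Slc11a2, the apical iron transporter, was at 50.9 and 44.9 CPM in p53+/+ against 71.2 and 55.1 CPM in p53-/- (0.40, edgeR quasi-likelihood adjusted p = 0.347). Of the remaining 13 only Lct did not overlap, and those that did included Slc5a1, the sodium glucose cotransporter (0.10), and Apoa4, an apolipoprotein of chylomicrons (-1.72, standard error 1.19), which was at 260 CPM in library 7 and at 12.4 to 74.9 CPM elsewhere.

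**Figure D5:**
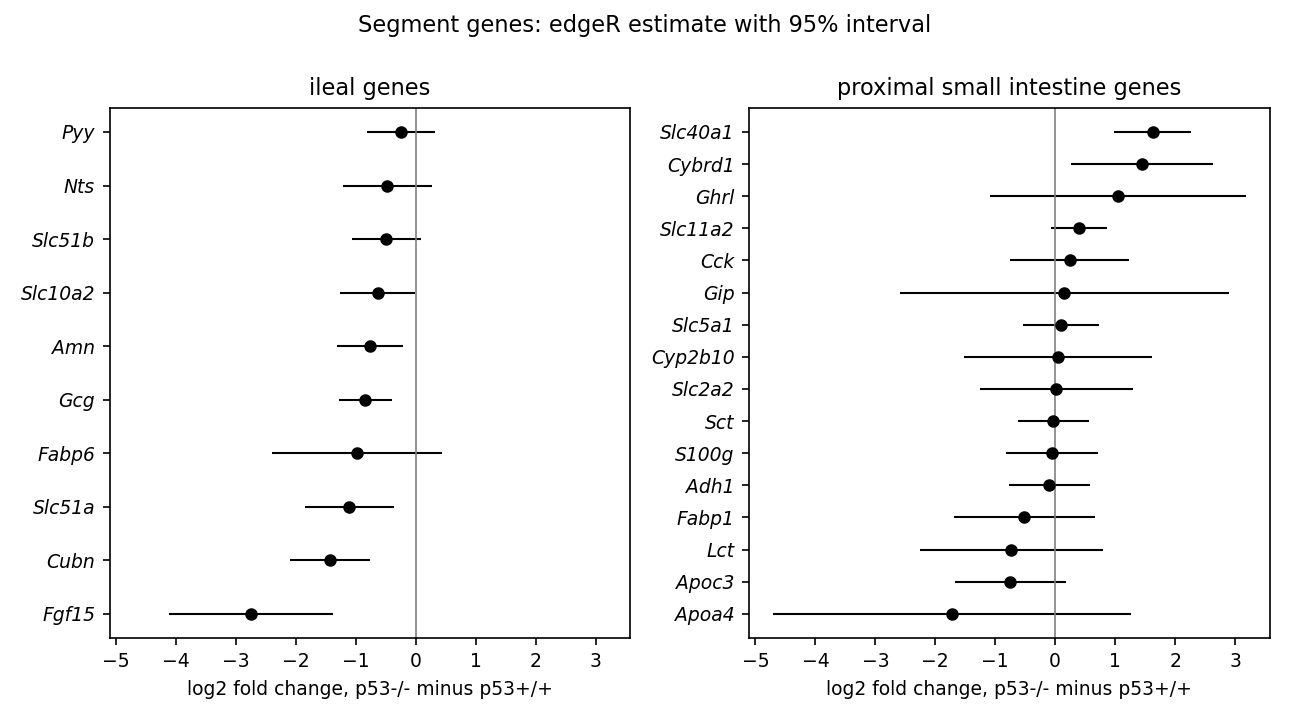
Log2 fold change, p53-/- minus p53+/+, with its 95% interval for the 10 ileal genes (left) and the 16 proximal genes tested (right). All ileal estimates lie below 0, from -0.25 (Pyy) to -2.75 (Fgf15), while proximal estimates run from -1.72 (Apoa4) to 1.63 (Slc40a1).

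Known targets of the abundant members were listed from textbook knowledge. Of 16 HNF4 targets, 14 were tested and all 14 were below 0 (median -0.70). At an unadjusted p under 0.05 there were 4, against 18% of all genes, and 0 passed the threshold. Without library 7, 11 of 15 were below 0 (median -0.39), and without library 10 also 11 of 15 (median -0.55). Apoa1, the main protein of high density lipoprotein, was at 9438 and 7799 CPM in p53+/+ and at 4785 and 4610 CPM in p53-/- libraries (log2 fold change -0.88, edgeR quasi-likelihood adjusted p = 0.303). Cdhr2, a protocadherin that links microvilli, had a log2 fold change of -0.90, and Vil1, which bundles their actin, of -0.46. Of 14 CDX2 targets tested, 13 were below 0 (median -0.44). At an unadjusted p under 0.05 there were 3, against 18% of all genes, and 0 passed the threshold. The epithelial reference list had the same median, with 13 of 16 below 0. Vil1 and Lgals4 are the middle genes of both lists, so the equal medians are no separate result. Mep1a, a brush border protease, was at 2731 and 2457 CPM in p53+/+ and at 1080 and 821 CPM in p53-/- libraries (-1.45, standard error 0.295, edgeR quasi-likelihood adjusted p = 0.109). Guca2a, guanylin, had a log2 fold change of -1.03, and Isx, a homeobox repressor of carotenoid uptake, of -0.79. With DESeq2, 6 of the 14 HNF4 targets and 3 of the 14 CDX2 targets were lower past the threshold, against 4.47% of all genes. Scaled to the epithelial genes, 10 of 14 HNF4 targets (median -0.23) and 7 of 14 CDX2 targets (median 0.01) were below 0. Cdhr5 and Vil1 stand in both lists, and Vil1, Cdh17 and Lgals4 are also among the epithelial reference genes.

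Among 24 other transcription factors of the intestinal epithelium, 16 were below 0 and 8 above (median -0.08). At an unadjusted p under 0.05 there were 5 lower and 2 higher, against 18% of all genes in either direction. The adjusted threshold was passed by 0 with edgeR. With DESeq2, 4 were lower and 1 higher, against 4.47% and 5.47% of all genes. The median turned to 0.14 without library 10. Creb3l3, a membrane-bound factor of lipid metabolism, was at 498 and 164 CPM in p53+/+ and at 56.8 and 52.4 CPM in p53-/- libraries (log2 fold change -2.60, standard error 0.536, edgeR quasi-likelihood adjusted p = 0.111). Ppara, the fatty acid receptor, had a log2 fold change of -0.998 (edgeR quasi-likelihood adjusted p = 0.140). Prdm1, a transcriptional repressor, was at 11.1 and 14.5 CPM in p53+/+ and at 30.4 and 23.5 CPM in p53-/- libraries (1.07, edgeR quasi-likelihood adjusted p = 0.140). These 3 genes separated the genotypes without overlap. Genes of T cells and B cells were also higher in both p53-/- libraries, and their part in the Prdm1 level was not tested. Of the most abundant factors, Klf4, of goblet and surface cells, was at -0.74 (edgeR quasi-likelihood adjusted p = 0.194), Elf3 overlapped between genotypes (-0.41), and Maf was at -0.43 (edgeR quasi-likelihood adjusted p = 0.392).

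Factors of neighbouring organs gave a check of position. Of 14 posterior Hox and colon factors, 6 had 0 counts in all 4 libraries (among them Hoxa13 and Hoxd13 of the hindgut) and 3 were tested, with 0 past the threshold. All 3 were below 0 (median -0.85, but -0.33 without library 8, with 2 below 0). At an unadjusted p under 0.05 there was 1, against 18% of all genes. With DESeq2, 1 was lower past the threshold, against 4.47% of all genes. Hoxb9, the least changed of the 3, was at 54.8 and 43.1 CPM in p53+/+ and at 50.6 and 36.7 CPM in p53-/- libraries. These overlapped (log2 fold change -0.16). Of 20 anterior and mid Hox genes, 15 were tested, with a median of -0.21 and 0 past the threshold. The sign of that median rested on library 8, since it was 0.51 without library 8 and -0.87 without library 7. Several of them (Hoxc6, Hoxc8, Hoxa5 and Hoxa7) were highest in library 8, which also held the most smooth muscle RNA. Of 7 foregut factors, 2 had enough counts to be tested, and Sox2, the stomach and esophagus factor, had 5 counts or fewer in every library.

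Stomach genes were scarce, and most but not all of the colon genes tested had a log2 fold change above 0. Of 16 gastric genes in the table, 1 was tested and 8 had 0 counts in every library. The gene tested was Ctse, an aspartic protease of gastric surface cells that immune cells also make, with 1 and 2 counts in p53+/+ and 63 and 104 in p53-/- libraries. It passed the filter on low counts only through the p53-/- libraries, which sets its direction among tested genes. T cell and B cell genes were also higher in both p53-/- libraries (summed T cell level 8.85 and 17.3 CPM against 84.3 and 165 CPM), and their part in the Ctse counts was not tested. Of 13 colon genes, 8 were tested, with 6 above 0 and 2 below (median 1.27) and 0 past the threshold. With DESeq2, 2 were higher and 1 lower, against 5.47% and 4.47% of all genes. Car4, a carbonic anhydrase, was at 55.2 and 83.2 CPM in p53+/+ and at 289 and 312 CPM in p53-/- libraries (log2 fold change 2.12, standard error 0.255, edgeR quasi-likelihood adjusted p = 0.0508). Slc26a3, the chloride bicarbonate exchanger of the colon, was lower in both p53-/- libraries (-1.17, edgeR quasi-likelihood adjusted p = 0.103), so these colon genes did not share a direction.

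Profiles over the 4 libraries were compared by the root-mean-square distance between centred log2 CPM, among 208 genes of the lists. This is a description of 4 points that share their libraries. Cdx2 had Isx at a distance of 0.130, and 97 of all genes tested were closer to it than Isx. Gata6 was most like Foxa2 (0.0456), a forkhead factor of endoderm, and Hnf4a like the goblet gene Clca1 (0.0867). Among the members themselves, the closest pair was Gata6 and Hnf4a (0.0529), ahead of Cdx1 and Hnf4g (0.0967), while Cdx1 and Cdx2 were 0.379 apart. Gata4 and Onecut2 were closest to each other among members (0.463). Outside the members, Gata4 was most like Ccnb1 (0.481), a mitotic cyclin, and Onecut2 like Ccl9 (0.443), a chemokine, distances several times larger than those of the abundant members.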

How the data were processed

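Small intestine RNA of irradiated p53+/+ and p53-/- mice (2 libraries each) was analysed as raw read counts per gene, deposited by the authors. Per the labels, the submitters' processing notes name fastp, HISAT2 2.0.5, featureCounts 1.5.0-p3 and DESeq2 1.20.0. The genome build, the annotation and the strand setting are not given in the sources used here, and genes that share sequence or exons could have lost or exchanged reads. The deposited table has 1 column per library with numbers of its own, mapped to a genotype only. Totals ran from 15005479 to 22173164 counts.

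Counts were filtered with filterByExpr, scaled by TMM and fitted with the quasi-likelihood test of edgeR 4.0.16 (R 4.3.3), with genotype as the sole term and Benjamini-Hochberg adjustment over 16094 genes at 0.05. CPM used the TMM-scaled library size. Exon lengths came from GENCODE M21, which held 91.8% of the gene identifiers, and promoters from RefSeq on GRCm38.p6. Poisson and ratio intervals are exact, at 95%, and the floor was 3 counts. Paralogue ratios were compared with an exact permutation test. Alternatives were other scalings, DESeq2 1.42.0, the likelihood ratio test, other filters, and each library left out. Leaving out Rn18s-rs5 was chosen after seeing the data. Genes named from a list were the most changed and the most abundant by a fixed rule, plus Fabp6, Slc10a2, Fgf15, Lct and Trp53 as position and genotype checks; other named genes illustrate counts given beside them and were chosen after their values were seen. The members and lists were chosen with earlier results of these data known. Some genes that the rule names are not reported here.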

Additional observations from a re-analysis of the deposited data

How the results depend on the processing

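With 2 libraries a genotype, the calls over all genes (48 higher and 31 lower in p53-/-) depended on the processing. They were 29 higher and 20 lower with upper-quartile factors, 26 and 20 with library size alone, 124 and 16 scaled to epithelial genes, 812 and 663 with DESeq2, 833 and 462 with the likelihood ratio test, 1433 and 761 with no filter on low counts, 24 and 18 with at least 10 counts in every library, and 4 and 2 at an adjusted p under 0.01. No filter moved the median of all genes to 0.15 on the log2 scale. Leaving out 1 library gave 0 to 680 higher and 0 to 344 lower. The counts were 325 and 319 without library 7, 680 and 344 without library 8, 77 and 9 without library 9, and 0 and 0 with edgeR without library 10, where 767 and 434 genes had an unadjusted p under 0.05. In these fits the lone library of a genotype is assumed to vary like the other genotype. The cause was not tested.

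Of the members, 1 (Cdx2) was lower past the threshold with DESeq2 (log2 fold change -1.01), the likelihood ratio test (-1.001), no filter (-0.95) and without library 8 (-1.30), and 0 to 1 over the libraries left out, where its log2 fold change ran from -1.30 to -0.63. Scaling to epithelial genes turned Gata6 to 0.13, Cdx1 to 0.23, Hnf4a to 0.043 and Hnf4g to 0.30, and leaving out library 10 turned Hnf4g to 0.014, at the end of a range from -0.29 over the libraries left out. Of 351 list medians, 54 moved. No paired analysis was possible because the columns carry no replicate numbers of the labels. Depth limited Pdx1, Onecut2 and Gata4.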

Other observations

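Of 10 stem and proliferation genes, 0 passed the threshold with edgeR and 4 were higher with DESeq2, against 5.47% of all genes. The median log2 fold change was 0.78, with 9 above 0. At an unadjusted p under 0.05 there were 5, against 18% of all genes. Olfm4, which marks crypt base stem cells, was at 47.6 and 16.0 CPM in p53+/+ and at 473 and 525 CPM in p53-/- libraries (3.97, edgeR quasi-likelihood adjusted p = 0.0587). Mki67, a marker of cycling cells, was at 55.9 and 37.4 CPM against 138 and 136 CPM (1.55, edgeR quasi-likelihood adjusted p = 0.0646). Axin2, a Wnt target and a neighbour of Gata6 in profile, was at 117 and 93.9 CPM against 103 and 75.6 CPM (-0.24).

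Secretory genes showed no common direction, with 8 of 13 above 0 (median 0.18, but -0.18 without library 8) and 0 past the threshold. With DESeq2, 2 were higher, against 5.47% of all genes. Mmp7, the Paneth cell protease, was at 157 and 112 CPM in p53+/+ and at 284 and 257 CPM in p53-/- libraries (1.01, edgeR quasi-likelihood adjusted p = 0.127). Clps, a lipase cofactor on the pancreas list, was at 61.8 and 41.1 CPM against 85.4 and 96.8 CPM while the acinar genes Ptf1a and Prss2 stayed at 0 counts.

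Other lists bear on what each piece of tissue held. Of 9 adipocyte genes 8 were tested, all 8 below 0, and Car3 and Cfd were lower past the threshold, against 0.193% of all genes. The list had a summed level of 176 and 116 CPM in p53+/+ against 31.1 and 27.8 CPM in p53-/-. Car3, Cfd, Adipoq, Plin1 and Retn had 5 counts or fewer in each p53-/- library and passed the filter on low counts only through p53+/+, which fixed their direction. All 12 T cell genes and all 9 B cell genes tested were above 0, as were all 8 tested genes of follicles and M cells (median 2.05), with 0 past the threshold in each list with edgeR. DESeq2 called 12 T cell, 7 B cell and 4 follicle and M cell genes higher, against 5.47% of all genes. The likelihood ratio test, whose calls over all genes are given in the section above, called 12, 9 and 3. Some T and B cell genes, such as Cd8b1 and Pax5 with 0 counts in both p53+/+ libraries, passed the filter only through p53-/-. All 8 tested genes of enteric neurons and glia were below 0 (median -1.31), and their sum was 96.5 CPM in library 8 and 24.7 to 31.9 CPM elsewhere. Without library 8 their median turned to 0.40, with 5 above 0 and 3 below. Smooth muscle genes had a median of -1.34, which turned to 0.71 without library 8 (11 of 11 above 0). Fibroblast genes had a median of 0.30, which was 1.96 without library 8 and -0.50 without library 7 (11 of 11 below 0). Of the rest, 3 of 8 liver genes were tested (median 0.31). The part of these cell types in the member levels was not tested.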
